A study of Papio hamadryas with 11 samples.

Results

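The deposited workbook of this study of baboon fetal liver holds, beside its table of known miRNAs, a table of miRNAs that the authors' software predicted. Each predicted entry carries a provisional id made of a human chromosome and a running number, such as chr14_18262. All 362 distinct ids were taken, each counted 1 time from the row in which the mature id stood on the precursor of the same id. With the 1921 names of the known table, the workbook lists 2283 mature sequences. The ids carry no coordinates and the files used here no sequences, so each entry is described by its id, its reads and the known miRNAs whose counts it resembles.

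The samples were livers of baboon (Papio hamadryas) fetuses at 0.9 of gestation. Of these, 5 were labelled maternal obesity (MO, 2 male and 3 female fetuses) and 6 control (CON, 3 male and 3 female fetuses). The study asked how maternal obesity relates to miRNA abundance in the fetal liver. No strain, genotype, diet or drug is named in the labels. MO 1 to MO 5 and CON 1 to CON 6 stand for the libraries, numbered as in the labels. Nothing in the labels ties a sample to a numbered animal, and whether each fetus had a different mother is not given. The tests therefore rest on the spread between samples, and that spread may be partly technical.

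A miRNA is cut as a short strand from a hairpin, first in the nucleus by Drosha and then in the cytoplasm by Dicer, and guides Argonaute to target transcripts. miRDeep2, after which the workbook is named, searches a genome for stacks of short reads that fit such a hairpin and lists hairpins that it scores as miRNA genes. Many miRNA genes lie close together and are transcribed as 1 transcript. On human chromosome 14 the imprinted DLK1-DIO3 region carries a large cluster of this kind, chromosome 19 a primate cluster known from the placenta (C19MC), and chromosome X several clusters, among them one known from testis. Liver is known for miR-122 in hepatocytes, and for abundant miR-192.

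Values of the predicted table were deposited as RPM, reads per 1000000 reads of the table's own total, and every value could be turned back into whole reads. That total sums all 470 deposited rows, 108 of which place an entry on another entry's precursor. Reads listed in more than 1 row therefore count more than 1 time in it. The rows used here held 83.8% ± 1.09 of the total with MO and 83.5% ± 1.63 in CON (SD, n = 5 and 6). The libraries differed in depth: the table held 787244 ± 32042 reads with MO (SD, n = 5) and 319422 ± 34106 reads in CON (SD, n = 6), a ratio of 2.46 with no overlap (two-sided exact permutation test, p = 0.00433, the smallest that this calculation can give; adjusted p = 0.00866 over 4 measures). Entries with at least 1 read numbered 253.4 ± 1.14 with MO and 226 ± 4.86 in CON (exact permutation test, p = 0.00433, adjusted p = 0.00866), and 223 ± 5.83 and 220.8 ± 4.62 once every library was thinned to 264456 reads (exact permutation test, p = 0.502). The library numbers in the labels run from 67 to 71 with MO and from 55 to 60 in CON, so a library batch and maternal obesity cannot be told apart. CON 4 was the shallowest library and stood apart in several entries, and MO 2 stood apart in the known muscle miRNAs miR-1, miR-133a and miR-206. The labelled tissue was checked on known miRNAs: miR-122-5p lay between 109490 and 177290 CPM (counts per 1000000 counts of the known table) with MO and between 152460 and 194780 CPM in CON, and miR-192-5p between 208420 and 231460 CPM with MO and between 206260 and 271680 CPM in CON.

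Of the 362 entries, 211 had 20 or more reads over the 11 libraries, 96 had 1 to 19 reads and 55 were at 0 in every library. A few entries held most of the reads: the leading 2 took 40.5% and the leading 10 took 71.2% of all reads on the 362 entries. Depth sets how low a 0 reaches. Over the table's totals of all 11 libraries together, a count of 0 allows up to 0.513 RPM (3 counts), or 0.762 RPM within the MO libraries and 1.57 RPM within the CON libraries. Such limits cover counting error only, because reads without molecular identifiers are not independent molecules.

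Chromosome X carried the most entries, 54, followed by chromosome 14 with 44 and chromosome 19 with 34. These chromosomes differed in how many of their entries the liver libraries filled. On chromosome 14 all 44 entries had reads and 41 had 20 or more, whereas 23 of 34 on chromosome 19 and 37 of 54 on chromosome X had any. The reads followed another order, since a single abundant entry can set a chromosome's share. Shares by chromosome are given of the table's total, which is larger than the reads on the 362 entries. Chromosome 11 took 21.4% ± 1.19 of that total with MO and 21.9% ± 2.61 in CON (SD, n = 5 and 6). Chromosome 18 took 13.1% ± 2.43 and 15.5% ± 1.59, and the 44 entries of chromosome 14 took 1.92% ± 0.344 and 1.55% ± 0.295.

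**Figure D1:**
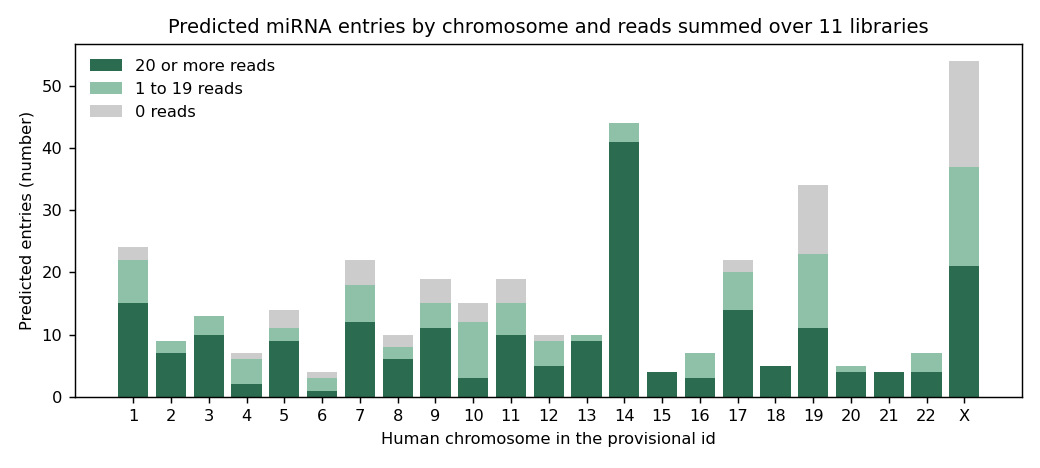
Number of predicted entries (vertical axis) by the human chromosome in the provisional id (horizontal axis), divided by reads summed over the 11 libraries. Chromosome 14 has 41 of 44 entries with 20 or more reads, and chromosome X has 21 of 54.

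The entries were compared with the table of known miRNAs from the same libraries. For each entry with 20 or more reads, the difference from a known miRNA was the sum of the absolute differences in reads over the 11 libraries, as a percentage of the entry's reads. For 55 entries a known miRNA had the same count in all 11 libraries, 95 entries lay within 1% of a known miRNA and 132 within 5%. Those 132 entries held 77.4% of the reads on predicted entries, and their nearest neighbours were 117 different known names. Abundant entries make the comparison sharp: of 88 entries with 1000 or more reads, 58 lay within 5%. For these 58, the second-nearest known miRNA differed by a median of 14.9% (from 7.77% to 64.4%). Values on these 132 entries are therefore close to a repeat of counts in the known table and no independent measurement of it.

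The remaining 79 entries with 20 or more reads differed from every known miRNA by more than 5%, and 15 of them by more than 25%. Many came near the proportions of a known miRNA over the libraries at another level. When each known miRNA was first scaled to the entry's total, 26 of the 30 entries with 1000 or more reads and no match within 5% came within 10% of one. The scaled comparison uses proportions only and names a likeness, not an identity.

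**Figure D2:**
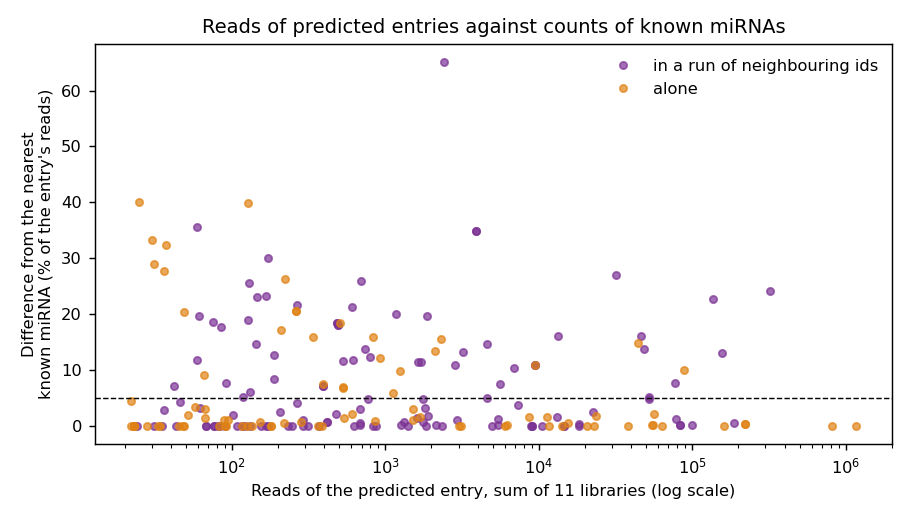
Difference between each predicted entry and its nearest known miRNA (vertical axis, percent of the entry's reads) against the entry's reads summed over 11 libraries (horizontal axis, log scale), for 211 entries with 20 or more reads. The dashed line marks 5%: 132 entries lie on or under it and 79 above it.

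The leading entries, chr11_15679 and chr18_21738, had counts that matched hepatic miRNAs. chr11_15679, whose reads differed from those of miR-192-5p by 0.053%, averaged 199190 ± 12185 RPM with MO and 202560 ± 28098 RPM in CON (SD, n = 5 and 6). chr18_21738 differed from miR-122-5p, the miRNA that makes up much of the hepatocyte pool, by 0.0464%. It averaged 130510 ± 24587 RPM with MO and 154920 ± 15914 RPM in CON. Neither passed the test of maternal obesity (limma, adjusted p = 0.772 and 0.615).

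Among the other leading entries, some matched a known miRNA in level and others only in proportions. chr12_16953 and chr3_4754 lie on different chromosomes and differed from miR-26a-5p by 0.374% and 0.409%, so both counts resemble those of 1 mature miRNA. chr17_21333 (0.53% from miR-10a-5p, encoded beside HOX genes), chr3_5611 (0.00559% from miR-191-5p) and chr9_12872 (0.195% from let-7f-5p) were close in level as well as pattern. In contrast, chr5_8057 kept the proportions of miR-143-3p, a miRNA known from mesenchymal cells, within 4.56% but at 0.657 times its reads. chr7_11096 likewise kept those of the hepatic miR-148a-3p within 4.8% at 0.449 times, and chr9_12879 those of miR-27b-3p within 4.37% at 0.698 times. Why these counts fall short of the known table was not tested.

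Reads were also repeated among the predicted entries themselves. Of the entries with 20 or more reads, 28 fell into 13 groups with identical values in every library, and 13 known miRNAs were nearest, within 5%, to more than 1 entry. miR-7-5p and miR-9-5p were each nearest to 3 entries on 3 chromosomes. chr1_2065 and chr9_13002, both 0.112% from miR-181a-5p, had the same 83050 reads. Counts of entries below are therefore counts of ids and not of independent miRNAs.

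Neighbouring ids were grouped into runs wherever their running numbers on a chromosome differed by at most 10. This gave 51 runs with 201 entries, while 161 entries stood alone (144 and 295 entries in runs at gaps of 2 and 50). The longest run had 34 entries on chromosome 14 (chr14_18260 to chr14_18335), followed by 20 on chromosome 19 (chr19_22437 to chr19_22497) and 13 on chromosome X (chrX_25424 to chrX_25458). Running numbers give order only, and distances between neighbours are not known from the files.

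All 34 entries of the long chromosome 14 run had reads, 93483 in all, and 32 had 20 or more. Of these, 16 lay within 5% of a known miRNA, and all the names matched belong, as background, to the DLK1-DIO3 cluster, among them miR-379-5p (chr14_18260), miR-381 (chr14_18297), miR-382-5p (chr14_18310) and miR-410 (chr14_18333). A shorter run of 6 entries, chr14_18186 to chr14_18203, matched miR-493-5p, miR-432-5p and miR-136-3p of the same region. Summed over the run of 34, levels were 13970, 22141, 18507, 15533 and 16006 RPM with MO 1 to 5. The CON libraries held 10535 RPM at the lowest and 17402 RPM at the highest. The sums of the groups overlapped, with MO 2 the highest library and CON 4 the highest control. Within the run, the entries spanned 6 to 31761 reads, and the most abundant was chr14_18262. On chromosome 19 the most abundant entry, chr19_22782, stood outside any run, with the proportions of miR-22-3p within 5.39%. It averaged 7320 ± 404 RPM with MO and 7967 ± 742 RPM in CON (log2 -0.03, limma adjusted p = 0.849).

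The other long runs were nearly empty. The chromosome 19 run of 20 entries held 25 reads in all libraries together, on 9 entries, and 11 entries were at 0. No entry in it had more than 6 reads. CON 6 held 32.1 RPM of the run, and every other library 6.63 RPM or less. The run of 13 on chromosome X and the next run of 5 (chrX_25472 to chrX_25485) held 38 reads on 7 of their 18 entries. No entry of these runs had the 20 reads needed for the comparison with known miRNAs, so no match was sought. The ids alone do not show whether these runs lie in the placental or the testis cluster.

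**Figure D3:**
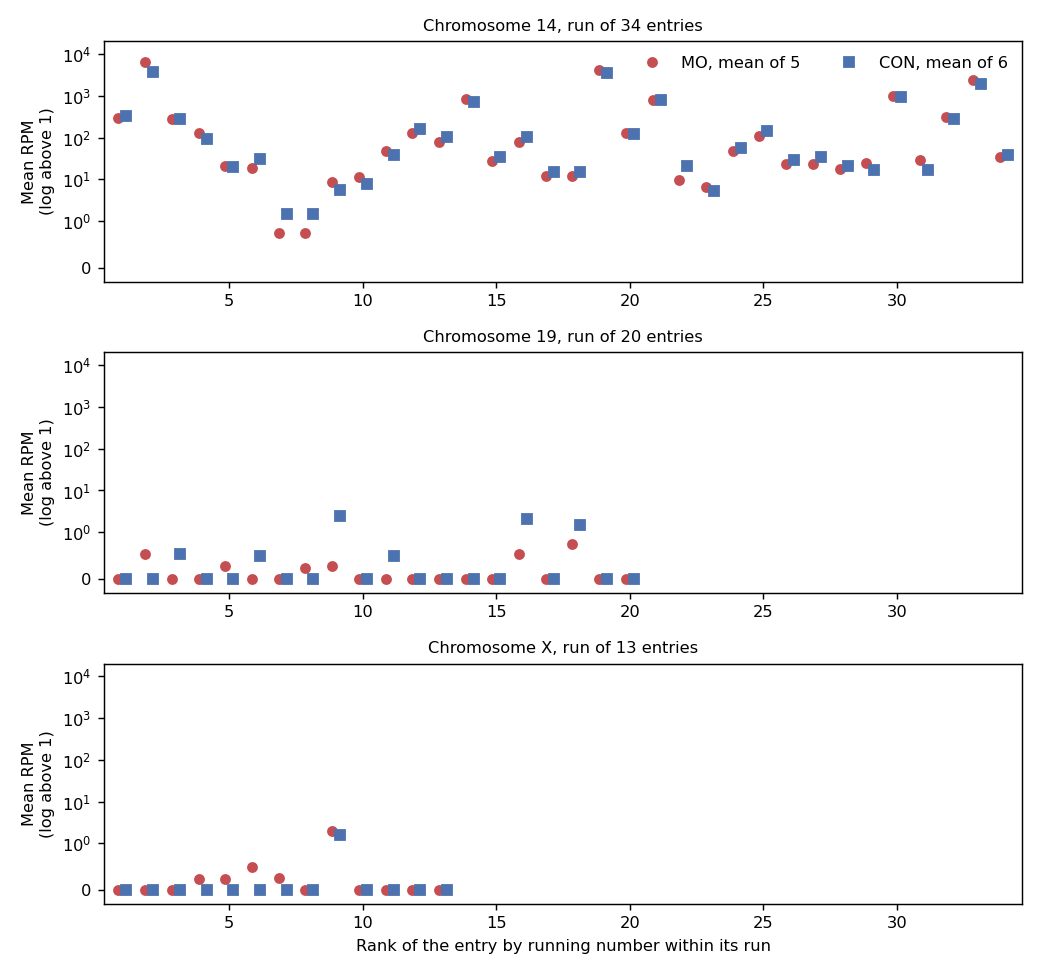
Mean RPM (vertical axis, logarithmic above 1 and linear below) of each entry, in order of running number (horizontal axis), in the 3 longest runs, for MO (circles, 5 libraries) and CON (squares, 6 libraries). All 34 entries of the chromosome 14 run carry reads, while 11 of 20 and 8 of 13 entries of the others are at 0 in every library.

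Some shorter runs matched members of textbook clusters, in whole or in part. Of the 6 entries chr13_17438 to chr13_17447, 3 lay within 5% of miR-17-5p, miR-18a-5p and miR-20a-5p of the growth-linked miR-17-92 cluster. The other 3 had no match within 5%. chr13_17441 and chr13_17445 differed by 25.9% and 34.9% in level, and in proportions by 9.68% from miR-19a-3p and 12% from miR-19b-3p. The proportions of chr13_17447 were nearest to miR-25-3p, within 4.28%, at 6.33 times its reads. That likeness does not place chr13_17447 inside or outside the cluster, and miR-25-3p was also nearest to an entry on chromosome 7. chr7_11378, chr7_11379 and chr7_11381 were nearest to miR-25-3p (10.4%), miR-93-5p and miR-106b-5p (both the same in all 11 libraries), the related cluster on chromosome 7. A run on chromosome 13 (chr13_17662, chr13_17663, chr13_17665) equalled miR-3613-5p, miR-16-5p and miR-15a-5p in every library.

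The miR-99/100, let-7 and miR-125 trio, known from 3 places in the human genome, appeared in 3 runs of 3 entries. On chromosome 19, chr19_22400, chr19_22402 and chr19_22404 lay within 5% of miR-99b-5p, let-7e-5p and miR-125a-5p. On chromosome 11, chr11_15931, chr11_15929 and chr11_15927 were nearest to miR-100-5p, let-7a-5p (5.08%) and miR-125b-5p. On chromosome 21, chr21_23650 and chr21_23654 matched miR-99a-5p and miR-125b-5p, and chr21_23652 kept the proportions of let-7c at 1.34 times its reads. The mature miR-125b-5p is the same from both of its loci, and chr11_15927 (9026 reads) and chr21_23654 (9071 reads) equalled the counts that the known table gives on its precursors.

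Entries of a run moved together more than entries of different chromosomes did. The 16 pairs that share reads or a precursor were set apart. Over the 11 libraries, deviations from the group means in log2 RPM had a median correlation of 0.41 over 343 pairs in the same run. It was 0.11 over 532 pairs on the same chromosome but not in the same run, and -0.012 over 10434 pairs on different chromosomes. Without CON 4 the medians were 0.31, 0.038 and -0.000722. These are descriptions: the pairs share 11 libraries, 285 of the 343 pairs come from chromosome 14, and the points carry the same depth and scaling. The 58 same-run pairs on other chromosomes had a median of 0.30, and 0.24 without CON 4.

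For maternal obesity, 151 entries that reached 20 RPM in at least 5 libraries were tested with limma on log2(RPM + 1) after division by TMM factors, and they held 99.9% of the reads on predicted entries. Adjusted p (Benjamini-Hochberg) was under 0.05 for 18 entries, 11.9% of those tested. Of these, 10 were higher with MO (6.62%) and 8 were lower (5.3%). The scaling shifts this division: without TMM factors 8 were higher and 10 lower. The median log2 difference of all tested entries was 0.06, and -0.04 when identical entries entered the fit 1 time. Fold changes on this scale understate the change of low entries.

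Of the 18, 12 lay within 5% of a known miRNA, beside 92 of all 151 tested. Among those 12, 3 had its exact count in every library, so these 12 calls restate differences of the known table. In RPM as deposited the groups did not overlap for 12 of the 18, against 13 of all 151 (8.61%). After TMM division they did not overlap for 16 of the 18, against 12.6% of the 151 (6.62% higher and 5.96% lower with MO). Entries in runs gave 12 of the 18 calls, 9 higher and 3 lower of 96 tested, and entries standing alone gave 6, 1 higher and 5 lower of 55 tested. Both shares are near the 11.9% called among all 151. The 9 include chr13_17663 and chr3_5208, which hold nearly the same reads, and the division by direction was not tested. In each sex taken alone, all 18 had the direction of the pooled difference. They were chosen on the same libraries pooled, so this is no separate support. The lowest adjusted p within a sex (limma) was 0.0517 in females and 0.0451 in males, where only chr19_22400 was under 0.05. Leaving out 1 library at a time kept 8 of the 18 past the threshold in all 11 fits. The count itself was 9 without MO 2, 10 without MO 3 and 10 without CON 2.

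**Figure D4:**
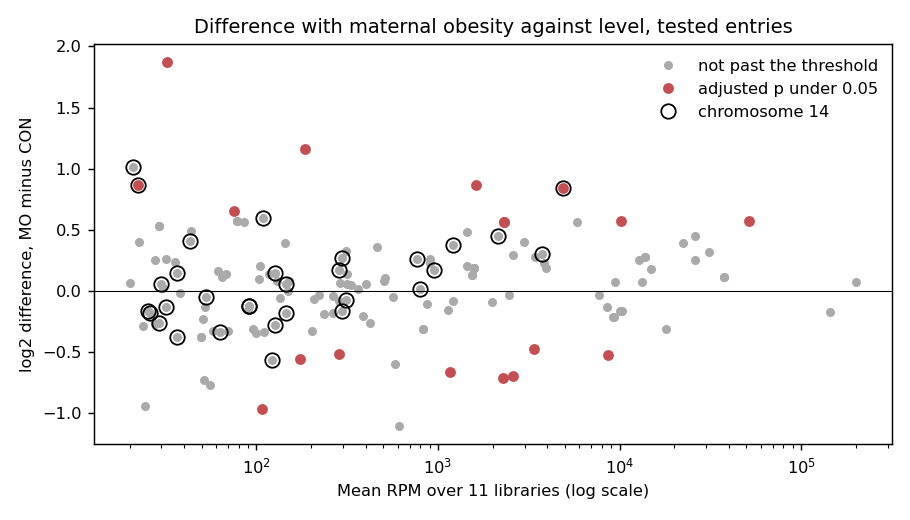
Difference between MO and CON (vertical axis, log2) against mean RPM over the 11 libraries (horizontal axis, log scale) for 151 tested entries. Red points are the 18 entries with adjusted p under 0.05, and rings mark chromosome 14, of which 2 entries are red.

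The entry with the lowest p belonged to the chromosome 19 trio. chr19_22400, whose reads differed from those of miR-99b-5p by 0.0664%, had 2215, 2201, 1795, 2262 and 1980 RPM in MO 1 to 5, against 1082 RPM at the lowest, 1225 RPM at the median and 1276 RPM at the highest in CON. Every MO library lay above every CON library. The log2 difference was 0.87 ± 0.12 (SE, limma adjusted p = 0.0016), and the entry stayed past the threshold in every alternative fit. Its neighbours chr19_22402 and chr19_22404 did not pass, with log2 differences of 0.08 and 0.48 (adjusted p = 0.81 and 0.142).

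chr7_11483 had the largest difference among the entries that passed. Its reads equalled those of miR-183-5p, of a cluster known from sensory organs, in all 11 libraries. It had 43.2, 48.8, 44.5, 47 and 75.6 RPM in MO 1 to 5, against 6.4 RPM at the lowest, 13 RPM at the median and 32.7 RPM at the highest in CON. The groups did not overlap, but these levels stand for 33 or more reads per library with MO and for 2 to 10 reads in CON. On the log2 scale the difference was 1.87 ± 0.33 (SE, limma adjusted p = 0.00484). With a minimum of 50 RPM it was not tested. Its neighbour chr7_11481, which equalled miR-96-5p of the same cluster, had 24 reads in all and was too low to test.

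On chromosome 14, 2 of the 29 tested entries of the runs passed, both of them higher, beside 6.62% higher among all 151, so the share is near the background. chr14_18262 had 4757, 7383, 6994, 5642 and 6611 RPM in MO 1 to 5, against 2945 RPM at the lowest, 3742 RPM at the median and 4678 RPM at the highest in CON. All 5 MO libraries exceeded all 6 CON libraries, the lowest of them narrowly. This came to a log2 difference of 0.84 ± 0.14 (SE, limma adjusted p = 0.00484) and passed in every alternative. No known miRNA came within 25% in level, but the entry kept the proportions of miR-411-5p, a member of the DLK1-DIO3 cluster, within 1.24% at 0.577 times its reads.

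The other chromosome 14 entry was low. chr14_18330 had 28.8, 38.5, 30.9, 24.1 and 23.9 RPM in MO 1 to 5, against 12.8 RPM at the lowest, 15.7 RPM at the median and 24.4 RPM at the highest in CON. MO 4 and MO 5 lay just under the highest control, which had 8 reads. The log2 difference was 0.86 ± 0.19 (SE, limma adjusted p = 0.0117), and DESeq2 on the recovered reads did not call it. Neither its level nor its proportions were close to a known miRNA (23.1% and 12.5%). Over the run of 34, 24 entries were tested, 14 had positive and 10 negative differences, and the median was 0.15, beside 0.06 for all 151.

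The remaining entries that were higher with MO stood on 6 chromosomes. chr19_22118, 2 running numbers before an entry nearest to miR-181d, was nearest to miR-181c-5p and had 332.8, 360.8, 206.4, 274.5 and 151.2 RPM in MO 1 to 5, against 105 RPM at the lowest, 112.8 RPM at the median and 163.2 RPM at the highest in CON. MO 5 lay below CON 1, and the other MO libraries lay above all controls. On the log2 scale the difference was 1.16 ± 0.22 (SE, limma adjusted p = 0.00538).

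chr5_8057, the most abundant entry that passed and the one with the proportions of miR-143-3p, had 71489, 67631, 56507, 55122 and 54708 RPM in MO 1 to 5, against 41417 RPM at the lowest, 42826 RPM at the median and 47840 RPM at the highest in CON. The groups were well apart. This came to a log2 difference of 0.57 ± 0.13 (SE, limma adjusted p = 0.0117). It lost its call without MO 2 (adjusted p = 0.0523), with no filter (adjusted p = 0.0618) and with a replicate block over MO 1 to 5 and CON 1 to 5. Of the 4 known mesenchymal miRNAs checked beside it, 2 averaged higher and 2 lower with MO, and their sum, mostly miR-143-3p, ranged from 86560 to 124990 CPM with MO and from 74244 to 84847 CPM in CON. None was at 0, and their part in the result was not tested. In whole liver, more cells of a type and more RNA per cell cannot be told apart.

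The other higher entries lost their call in most fits with 1 library left out. chr9_13098, with the reads of the endothelial miR-126-5p in every library, averaged 12013 ± 2070 RPM with MO and 8658 ± 2199 RPM in CON (log2 0.57 ± 0.14 SE, limma adjusted p = 0.0255) and passed in 2 of the 11 fits. The 2 known endothelial miRNAs checked, miR-126-3p and miR-126-5p itself, summed to 12194 to 18056 CPM with MO and 8685 to 15694 CPM in CON, and their part was not tested. The entries chr13_17663 and chr3_5208 hold nearly the same reads, those of miR-16-5p, and count as 1 observation. They averaged 2738 ± 358 and 2734 ± 357 RPM with MO and 1975 ± 330 and 1974 ± 329 RPM in CON. Both had a log2 difference of 0.56 (limma adjusted p = 0.0283) and passed in 2 of the 11 fits. chrX_25156, nearest to miR-421, averaged 90.3 ± 15 RPM with MO and 61.9 ± 17.4 RPM in CON (log2 0.65 ± 0.18 SE, limma adjusted p = 0.0351) and passed in 3 of the 11. For these 4 entries the RPM of the groups overlapped.

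The let-7 family is known for its rise as cells differentiate. Of the 8 entries with the proportions of a let-7 5p strand or miR-98 within 5%, 4 passed, all of them lower with MO, beside 5.3% lower among all 151 tested. This grouping was made after the values were seen and was not tested. Among the 8, chr11_15929 and chr22_24112, neither past the threshold, hold nearly the same reads and count as 1 observation. chr21_23652, with the proportions of let-7c, had 1796, 1855, 2071, 1848 and 1679 RPM in MO 1 to 5, against 2686 RPM at the lowest, 2847 RPM at the median and 4190 RPM at the highest in CON. No MO library reached the lowest control. The log2 difference was -0.69 ± 0.12 (SE, limma adjusted p = 0.00484), and it passed in every alternative, whereas its run neighbours chr21_23650 and chr21_23654 had log2 differences of 0.23 and 0.13 and did not pass.

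chr12_16354, nearest to let-7i-5p, had 1853, 1488, 1718, 1557 and 1396 RPM in MO 1 to 5, against 2165 RPM at the lowest, 2617 RPM at the median and 4545 RPM at the highest in CON. The groups did not overlap, and the highest control was CON 4. On the log2 scale the difference was -0.71 ± 0.15 (SE, limma adjusted p = 0.0102), and it passed in all 11 fits with a library left out. chr3_5653, nearest to let-7g-5p, averaged 2708 ± 265 RPM with MO and 3979 ± 220 RPM in CON (log2 -0.47 ± 0.13 SE, limma adjusted p = 0.0351). chrX_25081, nearest to miR-98, averaged 828.9 ± 70.4 RPM with MO and 1456 ± 563 RPM in CON (log2 -0.66 ± 0.17 SE, limma adjusted p = 0.0274), each passing in 7 of the 11 fits. The family's further entries did not pass: chr9_12872 (let-7f-5p) had a log2 difference of -0.31, chr11_15929 and chr22_24112 (let-7a-5p) each -0.22, and chr19_22402 (let-7e-5p) 0.08. Family members are near-identical in sequence, so how reads were shared among them is uncertain.

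chr3_5477, nearest to the hepatic miR-885-5p, had 78.6, 73.2, 74.2, 81.9 and 35.8 RPM in MO 1 to 5, against 121 RPM at the lowest, 137.5 RPM at the median and 158.8 RPM at the highest in CON. All MO libraries lay below all controls, MO 5 furthest. The 5 known hepatocyte miRNAs checked did not share a direction: 3 averaged lower with MO, miR-885-5p itself among them, and 2 higher (miR-194-5p and miR-148a-3p). Their sum ranged from 398670 to 483190 CPM with MO and from 426330 to 495870 CPM in CON, and their part in the result was not tested. This came to a log2 difference of -0.96 ± 0.18 (SE, limma adjusted p = 0.00551), and it passed in every alternative.

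The last of the lower entries had smaller differences. chr1_559, with the proportions of miR-197-3p, averaged 133.3 ± 13.8 RPM with MO and 209.5 ± 33.3 RPM in CON (log2 -0.55 ± 0.13 SE, limma adjusted p = 0.0151). chr5_8136, nearest to miR-146a-5p, which restrains innate immune signalling, averaged 220.8 ± 18.3 RPM with MO and 341.7 ± 75.3 RPM in CON (log2 -0.52 ± 0.15 SE, limma adjusted p = 0.0489). The 6 known leukocyte miRNAs checked, miR-146a-5p among them, all averaged lower with MO (miR-142-3p at 42.2 CPM with MO and 70.4 CPM in CON, for example). Their sum ranged from 1016 to 1281 CPM with MO and from 1094 to 2108 CPM in CON, none was at 0, and their part in this result was not tested. All 3 known erythroid miRNAs checked also averaged lower with MO, with sums of 6977 to 14110 CPM with MO and 6511 to 17161 CPM in CON. chr5_8061, with the proportions of miR-378a-3p, averaged 6807 ± 1578 RPM with MO and 10181 ± 1171 RPM in CON (log2 -0.52 ± 0.16 SE, limma adjusted p = 0.0489). It is the run neighbour of chr5_8057, which was higher. With 1 library left out, chr1_559 passed in 10, chr5_8136 in 7 and chr5_8061 in 6 of the 11 fits. chr5_8136 also lost its call with sex as a covariate (adjusted p = 0.0728), and all 3 lost it with no filter.

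**Figure D5:**
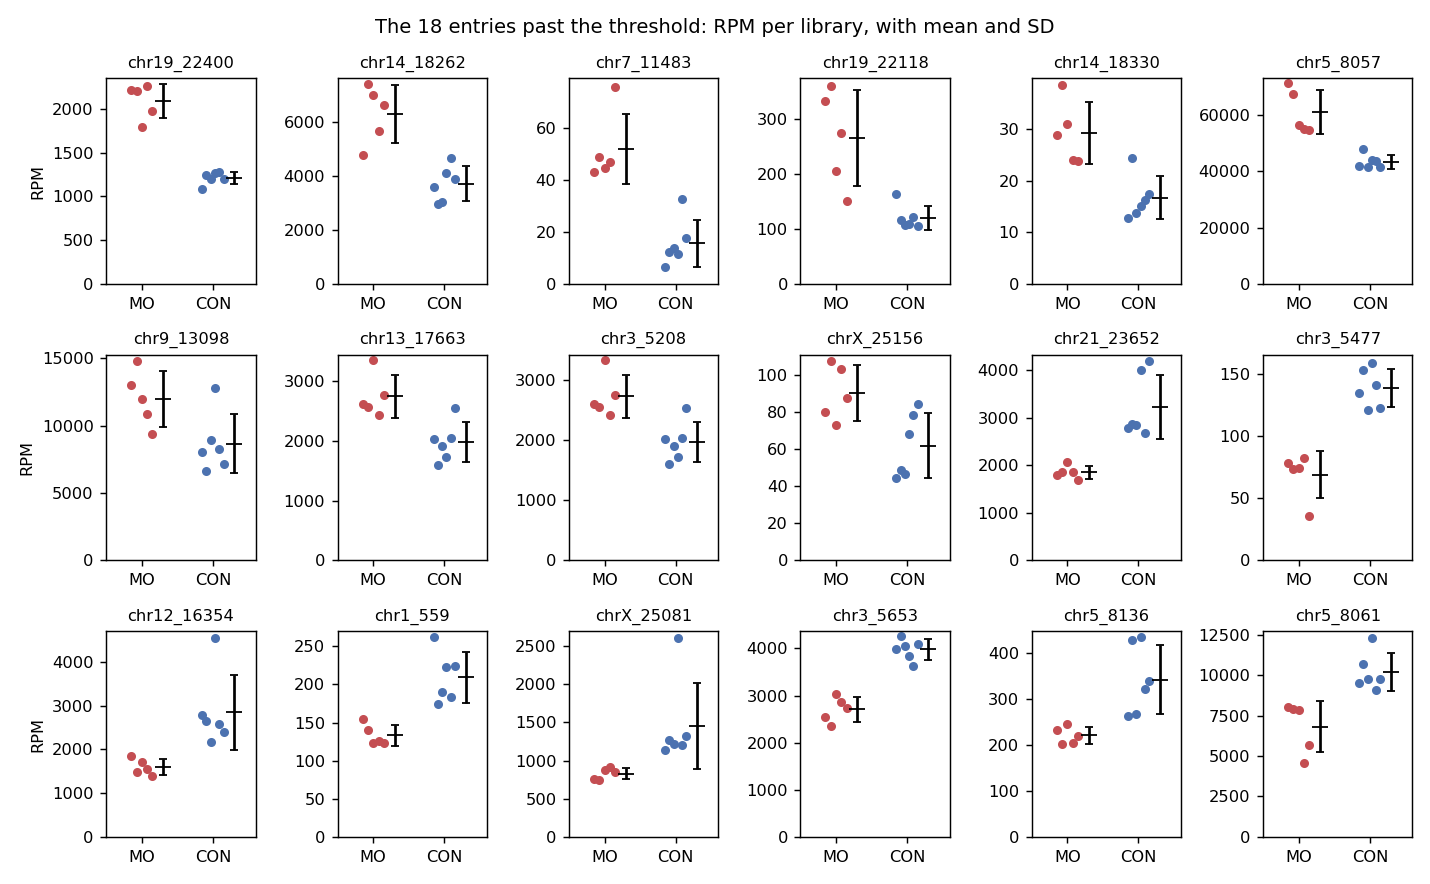
RPM per library (vertical axis, from 0) of the 18 entries with adjusted p under 0.05, MO left of CON, each point 1 library, with the mean and SD to the right of each group. The 10 panels from chr19_22400 to chrX_25156 are higher with MO and the following 8 lower. In RPM the groups do not overlap in 12 panels.

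No entry passed the test between male and female fetuses: 0 of 151 were called in limma with maternal group as a covariate (0%), in edgeR or in DESeq2, while 9 had an unadjusted p under 0.05. The lowest p belonged to chr2_2777 and chr3_4743, which share their reads. They averaged 62.9 ± 24.1 RPM in males and 38 ± 6.98 RPM in females (SD, n = 5 and 6; log2 difference 0.56, limma adjusted p = 0.285). These levels stand for only 12 to 27 reads per CON library, and the 27 were in CON 4, a male and the shallowest library.

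The effect of maternal obesity did not pass a test of difference between the sexes in any entry (0 of 151, 0%; 0 in edgeR and in DESeq2; 3 with unadjusted p under 0.05). The lowest p was that of chr18_21738, the entry nearest to miR-122-5p. In males it averaged 150940 ± 17987 RPM with MO and 144260 ± 14392 RPM in CON (SD, n = 2 and 3), and in females 116890 ± 18749 RPM with MO and 165580 ± 9208 RPM in CON (SD, n = 3 each). The effects differed by 0.88 ± 0.26 on the log2 scale, male minus female (SE, limma adjusted p = 0.661).

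Several entries far from any known miRNA stood far higher in 1 library than in the others. chr9_12885, which had the highest spread within a group among tested entries (SD 1.69 times the mean once TMM-scaled), held 4402 RPM in CON 4, or 1164 reads, between 116.7 and 348 RPM in the other 5 CON libraries and between 63.8 and 488.7 RPM with MO. Its nearest known miRNA differed by 65.1%, and even in proportions the nearest, miR-4485, differed by 30.7%. chr13_17445 and chrX_25362 share their reads and held 4311 RPM in CON 4, against 398.9 to 496 RPM in the other CON libraries and 406.1 to 612.6 RPM with MO. Their proportions were nearest to miR-19b-3p (12%). chr11_15390, nearest to miR-4485 (26.2%), showed the same library, with 378.1 RPM in CON 4, at most 67.2 RPM in other controls and at most 45.9 RPM with MO. None of these 4 entries passed the test of maternal obesity.

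The muscle-type entries showed the other library that stood apart. chr18_21850 and chr18_21852, repeated with the same values as chr20_23365 and chr20_23363, were nearest to miR-133a and miR-1, which mark striated muscle. They had 412.2 and 398 RPM in MO 2, between 4.82 and 47.2 RPM in the other MO libraries and between 3.27 and 35.2 RPM in CON. They did not reach the level needed for the test. All 3 known muscle miRNAs followed, summing to between 21.2 and 968.2 CPM with MO and between 15.3 and 65.2 CPM in CON. With CON 4 left out, 23 entries passed for maternal obesity.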

How the data were processed

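Small RNA of 11 fetal livers was extracted with a Qiagen miRNeasy kit and sequenced from Illumina TruSeq small RNA libraries, per the labels' protocols. The workbook is named for miRDeep2. Human build hg18 is listed in the submitters' processing notes, so baboon reads were placed on human sequence. Not given in the sources used here are the version, aligner settings, mismatch limits and score threshold. The authors deposited 470 predicted rows, of which 108 placed an entry on another entry's precursor and were left out. Per the file headers, normalised columns give RPM (reads per 1000000 reads) scaled, as the values show, to the table's total over all 470 rows. All values (100%) came out as whole reads within 0.0051 RPM. The raw count columns that the authors deposited there are a copy of the known table's opening 470 rows, so they were set aside. The known table's deposited read counts repeat 2234 rows; each was used 1 time, and its 11 normalised columns were not used. CPM are counts per 1000000 counts of that table.

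RPM were divided by TMM factors (edgeR 4.0.16, R 4.3.3), 1 was added, and limma 3.58.1 was fitted to log2 values of 151 entries with 20 or more RPM in 5 or more libraries. Calls needed a Benjamini-Hochberg adjusted p under 0.05. Printed RPM are not divided by TMM factors, fold changes are. Sex was tested with maternal group as a covariate, and sex differences in the effect as an interaction. Exact permutation tests used scipy 1.17.1. edgeR and DESeq2 1.42.0 on recovered reads were alternatives. The calling procedure was also tried on simulated reads, which held no library batch and no repeated reads, so that trial does not vouch for the calls reported here. The rule for naming took every entry past the threshold for maternal obesity, the 10 most abundant, the lowest p for sex and interaction, the leading entries of chromosomes 14, 19 and X, the neighbours of these in runs, and the entry with the highest spread. The likeness measures and entries standing high in single libraries were chosen after values were seen. Members and lists were chosen with earlier results of these data known.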

Additional observations from a re-analysis of the deposited data

Results flagged for a closer look

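Of 60 sets of values examined (30 named entries in each maternal group), 9 held a library standing far from the others of its group by Dixon's ratio. Chance flags about 1 in 20 independent sets, but the 9 cannot be set against that: chr9_12885 was named for its spread, and chr12_16953 and chr3_4754 have nearly the same reads. CON 4 was the high library in 4 of them, with 4545 RPM of chr12_16354 (other CON libraries 2165 to 2781), 12826 RPM of chr9_13098 (6654 to 8967), 2598 RPM of chrX_25081 (1136 to 1316) and 4402 RPM of chr9_12885 (116.7 to 348). CON 4 also had the largest TMM factor, 1.21. MO 5 stood high in chr7_11483 (75.6 RPM, others 43.2 to 48.8), chr12_16953 (46301 RPM, others 33679 to 36999) and chr3_4754 (46284 RPM, others 33674 to 36985), and low in chr3_5477 (35.8 RPM, others 73.2 to 81.9). CON 1 stood high in chr19_22118 (163.2 RPM, others 105 to 121).

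The workbook's column of pooled reads, taken here as the authors' value, held signal outside the 11 libraries. Over the 362 entries it held 81889751 reads, 16.7 times the reads of the 11 libraries. For chr19_22464 it held 59184 reads although all 11 livers were at 0. The sources used here do not say which libraries were pooled. The chromosome 19 run of 20 entries held 687691 pooled reads beside 25 in the livers. The 55 entries at 0 had between 1 and 59184 pooled reads (median 75), and 26 of them had 100 or more.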

How the results depend on the processing

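For maternal obesity (18 entries, 10 higher and 8 lower), 11 passed with no filter (8 and 3, of 307 tested), and between 9 and 23 when 1 library was left out: 9 without MO 2, 10 without MO 3, 10 without CON 2 and 23 without CON 4. Counts lay between 14 and 20 under the other pseudocounts, filter, scalings and tools, with identical entries used once, with thinned reads and with sex as a covariate. The higher and lower calls numbered 7 and 8 with RLE factors, 6 and 8 with identical entries used once, 7 and 9 with thinned reads, 8 and 9 in DESeq2 and 11 and 9 in edgeR. With a replicate block over MO 1 to 5 and CON 1 to 5, 9 passed (5 and 4), against 17 in those 10 libraries without it, an alternative chosen after seeing the data. Same-numbered libraries had correlations of deviations of 0.14, 0.0065, 0.075, -0.25 and 0.18, not every library was closest to its own number, and the numbers are not taken to pair the livers. Past the threshold, 6 of the 18 stayed in every fit. No call was made for sex in any alternative. For the difference between sexes, 4 entries passed with no filter and between 0 and 1 with a library left out (1 without CON 2).

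Sign changes occurred only in entries that did not pass. chr11_15679 (log2 0.07) had -0.0157 without TMM factors, -0.0258 with identical entries used once, -0.0171 with thinned reads, -0.0423 with the replicate block and the same without it, and -0.0423 to 0.12 with a library left out. chr12_16953 (0.11) had -0.0074 with and without the block in 10 libraries and -0.0788 to 0.13 with a library left out, and chr3_4754 had -0.0076 and -0.079 to 0.13. The causes were not tested. In the CON libraries 1 read stands for 2.75 to 3.78 RPM, which limits low entries there.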
